A study of Mus musculus with 16 samples.

Results

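Progenitor cells of mouse inguinal fat that carry DPP4 on their surface were compared with progenitors of the same depot that lack it, with both kept in culture and exposed to isoproterenol. The comparison takes in 8 of the 16 bulk RNA-seq libraries of the series, 4 labelled DPP4_pos and 4 labelled DPP4_neg, and no vehicle library enters its test. Of the 27179 entries in the gene table, 13284 had a normalized count of at least 10 in at least 4 of the 8 libraries and were tested. Both groups came from C57BL/6 mice, from PDGFRb+ cells isolated by flow cytometry and grown in medium with serum before treatment. The labels give the treatment of all 8 libraries as 10 mM isoproterenol for 4 hours. The remaining 8 libraries are the same 2 populations given PBS as vehicle, and they are used here only to set the gap between the populations beside its value without the drug. No age, sex or number of animals is given for these groups, and nothing states that the replicates came from separate animals or cultures, so each p-value reflects variation among these libraries alone, and that variation may be technical.

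Adipose progenitors are stromal cells that divide, differentiate into fat cells and secrete factors that act on their neighbours. DPP4, a cell-surface peptidase, marks progenitors of the reticular interstitium, which also express Pi16 and Cd55. DPP4-negative cells include preadipocytes further along the path to adipocytes. Isoproterenol is an agonist of beta-adrenergic receptors. In fat those receptors raise cyclic AMP through Gs and adenylyl cyclase, protein kinase A then phosphorylates the transcription factor CREB, and sympathetic nerves use the same route in the cold to drive lipolysis and heat production.

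Reads counted in genes ranged from 9823799 to 22121496 per library over the 8 libraries. The first principal component held 83.6% of the variance and separated the populations, and the next held 4.21%. Correlations of log2 values between libraries of the same group ran from 0.9875 to 0.9931. The deposited normalized counts sum to between 18373884 and 18618379 in the DPP4_pos libraries and to between 16076668 and 16240972 in the DPP4_neg libraries. Rescaling every library to the same total moved the median log2 difference over all genes by -0.19. RNA was pooled over many cells, so fewer cells of a kind and less RNA per cell cannot be told apart in any value below.

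The labels held for the sorted gene. Dpp4 (GRCm38, chromosome 2, 62330073 to 62412315) had normalized counts of 2104, 2187, 2274 and 2326 in the DPP4_pos libraries. In the DPP4_neg libraries it had 9.72, 8.81, 7.89 and 13.1. All 4 DPP4_pos libraries lay far above every DPP4_neg library, 207-fold on the log2(normalized count + 1) scale. Because the cells were sorted on this protein, that difference is a check of the labels and not a finding.

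The populations differed at most of the genes measured. With limma and Benjamini-Hochberg adjustment over all 13284 genes, 9586 genes (72.2%) passed an adjusted p of 0.05. Of all genes tested, 4927 (37.1%) were higher in the DPP4_pos libraries and 4659 (35.1%) were lower. With libraries scaled to equal totals the split was 3431 higher and 6413 lower, so 34.9% of the calls were higher in place of 51.4%. A call with a difference of at least 2-fold was met by 1123 genes (8.45%) in the higher direction and 1232 genes (9.27%) in the lower direction. This 2-fold rule was added after the number of calls was known. At least 4-fold differences numbered 358 higher and 306 lower, and at least 16-fold differences 56 higher and 24 lower. The 2 groups did not overlap at 8737 genes (65.8%). A count within a gene list below is therefore to be read against a background in which about 7 genes in 10 differ. Counts of moved gaps have another background, from a fit over all 16 libraries. There the gap differed from that under vehicle at 8562 genes (64.5%), 33% toward the DPP4_pos side and 31.4% toward the DPP4_neg side.

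**Figure D1:**
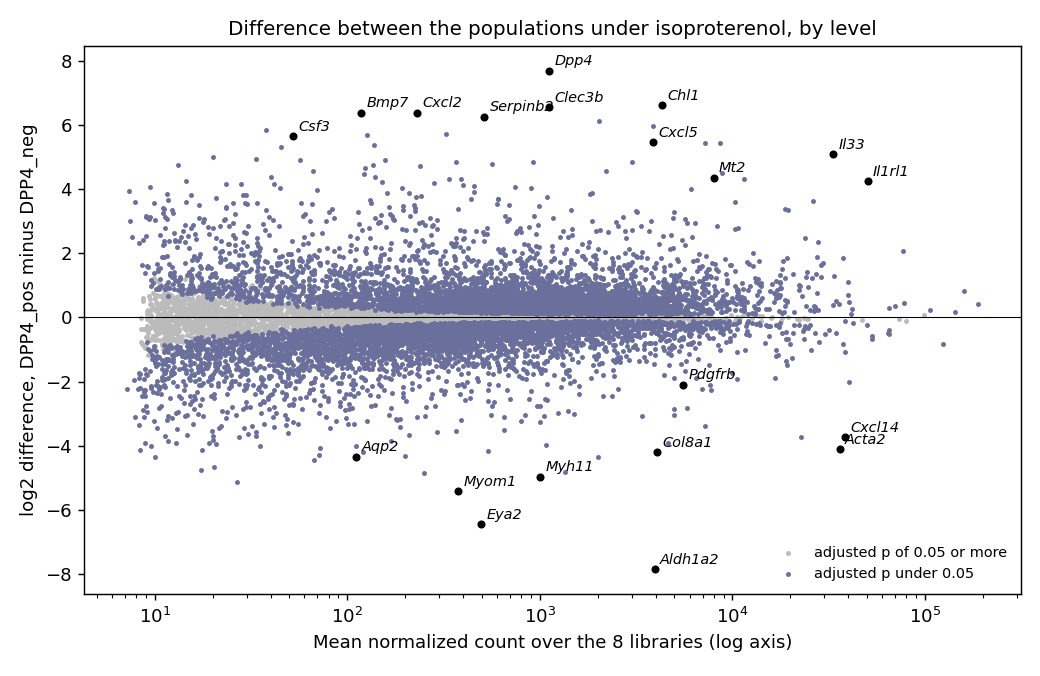
Mean normalized count over the 8 libraries (log axis) against the log2 difference, DPP4_pos minus DPP4_neg, for each of the 13284 genes tested. Coloured points passed an adjusted p of 0.05, grey points did not, and black points are named genes from Dpp4 at 7.70 to Aldh1a2 at -7.86.

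Beyond Dpp4, the genes furthest above were of several kinds. Chl1, a cell adhesion molecule of the L1 family, stood at 9273, 8743, 7988 and 7956 in the DPP4_pos libraries and at 87.5, 86.6, 67.8 and 104 in the DPP4_neg libraries, a 98.0-fold difference (log2 6.61 ± 0.10 SE, adjusted p = 3.39e-17). Under vehicle its log2 gap was 3.63, and the gap widened by 2.98 ± 0.14 (interaction adjusted p = 6.56e-14). Serpinb2, an inhibitor of plasminogen activators, had 1121, 1138, 1001 and 801 against 17.8, 11.7, 6.31 and 15.8. No DPP4_neg library of either gene came near the lowest DPP4_pos library. Ace, the angiotensin-converting enzyme, was 63.5-fold higher (log2 5.99 ± 0.13, adjusted p = 3.65e-15), and Clec3b, which encodes tetranectin, 94.3-fold higher (log2 6.56 ± 0.09, adjusted p = 2.90e-17). Clec3b had a gap of 6.53 under vehicle, and the change of its gap did not pass the test.

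At the other end stood Aldh1a2 (chromosome 9, 71215789 to 71296243), which encodes a retinaldehyde dehydrogenase that makes retinoic acid. It had 39.3, 24.4, 38.0 and 31.9 in the DPP4_pos libraries and 7382, 8141, 8062 and 7869 in the DPP4_neg libraries. That 232-fold difference (log2 -7.86 ± 0.11, adjusted p = 2.90e-17) was the most negative of all genes tested. Eya2, a transcriptional coactivator and phosphatase, had 8.99, 8.71, 10.2 and 13.2 against 955, 1116, 847 and 1019, a log2 difference of -6.46 ± 0.14. Myom1, a sarcomere M-band protein, differed by -5.41, Bcam, a laminin receptor, by -4.16, the homeobox gene Gsc by -4.30 and the water channel gene Aqp2 by -4.35. Aqp2 was nearly silent under vehicle, with means of 1.95 and 4.14, and stood at 9.69 ± 2.68 (SD, n = 4) in the DPP4_pos and 214 ± 27.4 in the DPP4_neg libraries under isoproterenol.

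Markers of the interstitial progenitor were mostly higher in the DPP4_pos libraries. Of 32 listed markers, all of them tested, 30 were higher, 22 of them by at least 2-fold, and 1 was lower. Their median log2 difference was 1.73, beside 0.0048 over all genes tested, and 3 of the 32 had passed the filter on low counts only through their higher group. This list was built from genes known to mark the sorted cells, so its direction is no independent evidence. Pi16, a peptidase inhibitor gene that marks these cells, had 20292, 21498, 21308 and 23946 in the DPP4_pos libraries and 1020, 1175, 1041 and 1162 in the DPP4_neg libraries. Its gap of 4.31 was smaller than the 5.81 under vehicle, a change of -1.5 ± 0.15 (adjusted p = 2.12e-08). Cd34, a sialomucin of stem and stromal cells, also had a gap that narrowed, from 6.15 to 4.86. Igfbp5, which binds insulin-like growth factors, was the listed marker that was lower: 21531, 18731, 20924 and 22130 in the DPP4_pos libraries against 35494, 35538, 33935 and 36555. Under vehicle it had been the other way, with a gap of 2.01 toward the DPP4_pos libraries.

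The 2 receptors for platelet-derived growth factor did not behave alike. Pdgfrb, whose protein was used to isolate all of these cells, had 2347, 2042, 1987 and 2044 in the DPP4_pos libraries and 9045, 8902, 8609 and 9557 in the DPP4_neg libraries. That is 4.29-fold lower (log2 -2.10 ± 0.05, adjusted p = 1.66e-14), against a vehicle gap of -0.58. Pdgfra, the general marker of fat progenitors, read 10883, 10760, 10922 and 9989 against 10953, 9704, 10786 and 10944, with groups that overlap and a log2 difference of 0.01 ± 0.05 (adjusted p = 0.909). Under vehicle Pdgfra had been higher in the DPP4_pos libraries by 1.33. With libraries scaled to equal totals the Pdgfra difference became -0.19.

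Genes of committed preadipocytes and of cells bearing CD142 were split, 12 higher and 12 lower of 25, with a median log2 difference of 0.15 that turned to -0.04 under equal totals. Apod at 3.04 and Rarres2, the chemoattractant chemerin, at 2.50 were among the higher members. The chemokine gene Cxcl14 at -3.74, Meox2 at -2.99 and F3, which encodes CD142 itself, at -0.86 were among the lower ones. Summed counts of the 25 were lower in the DPP4_pos libraries, at 199352 to 205969 against 321623 to 333391. Of 9 general markers of stromal progenitors 5 were higher and 3 lower: Dcn, or decorin, was at 1.85, Lum, or lumican, at 1.92 and Thy1 at -0.12.

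Markers of other cell types were read in the same libraries. The 15 macrophage and leukocyte markers summed to between 715 and 1928 in the DPP4_pos and between 775 and 2084 in the DPP4_neg libraries, so the groups overlapped. Of 12 such markers tested, 2 were higher and 2 lower. Cd68 lost its higher call without DPP4_neg replicate 1 or 4 or DPP4_pos replicate 4 (0.66 to 0.79), and Coro1a its lower call without DPP4_neg replicate 3 (-0.74). Mrc1, the mannose receptor, varied from 46.8 to 494 across the DPP4_pos libraries and from 0.81 to 167 across the DPP4_neg libraries, so its groups overlapped. Csf1r, the receptor for colony-stimulating factor 1, was lower by 1.45 on the log2 scale. Of 7 endothelial markers tested, 6 were higher, among them Tek at 3.52 and Kdr at 2.49, and the sum of all 11 ran from 2453 to 2637 against 1801 to 2354. Pecam1 and Cdh5, which define endothelium, were low, with means of 50.6 and 57.5 in the DPP4_pos and 12.5 and 10.7 in the DPP4_neg libraries. Of 12 mural markers tested, 5 were higher and 7 lower, with sums of 2800 to 3022 against 6180 to 6492. Of 8 mesothelial markers only Krt19 passed the filter. It had 179, 166, 151 and 122 against 1220, 1711, 1532 and 1341, and Upk1b and Muc16 had no read in either group. The 7 Schwann cell markers summed to 1860 to 2328 in the DPP4_pos libraries and to 1168 to 1346 in the DPP4_neg libraries, without overlap, beside vehicle means of 4586 and 531. Of 3 tested, 2 were higher and 1 lower, and most of the sum was Ngfr, a neurotrophin receptor, with means of 2042 and 1157. Sox10, which defines Schwann cells, had no read in the DPP4_pos libraries and up to 2.43 in a DPP4_neg library. The epithelial sum was 1.12 to 5.23 in the DPP4_pos libraries. It reached 163 in DPP4_neg replicate 1 and was 2.63 to 10.3 in the other DPP4_neg libraries. Krt13, an epithelial keratin outside that list, was lower by 4.20. Unlike that sum, it was highest in DPP4_neg replicate 2, at 298, with 207 to 208 in the others of that group. What part such cells have in the differences was not tested.

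**Figure D2:**
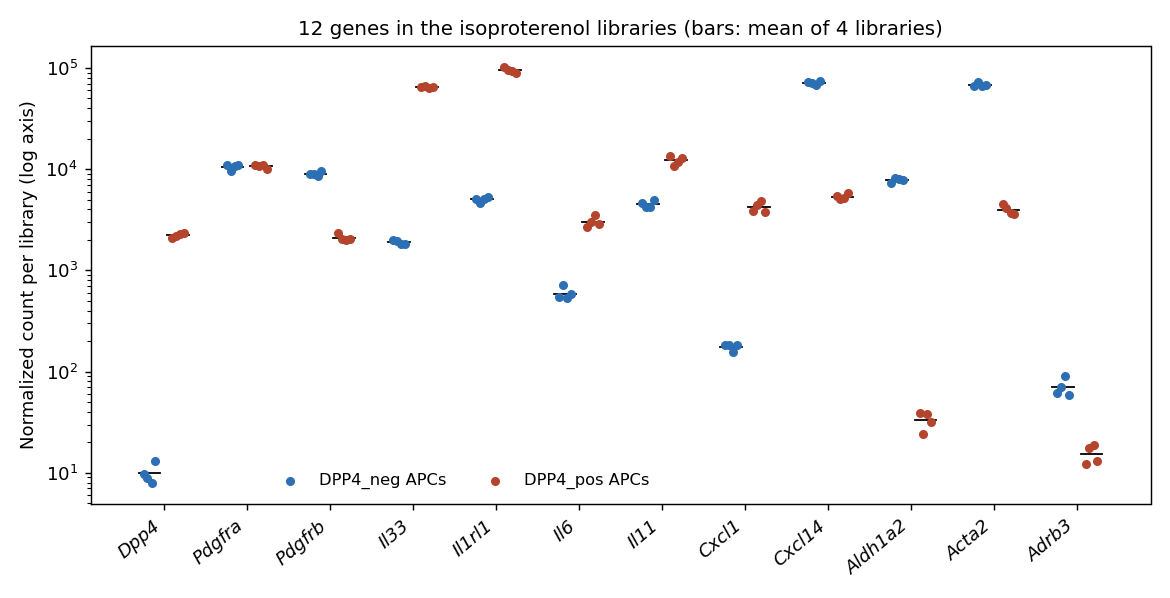
Normalized counts (log axis) of 12 genes in each of the 4 DPP4_pos and 4 DPP4_neg libraries under isoproterenol. Horizontal bars are means of 4 libraries, and the groups are apart for every gene drawn except Pdgfra.

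The alarmin IL-33 and its receptor ST2 were both far above in the DPP4_pos libraries. Il33 (chromosome 19, 29925113 to 29960718) had 64649, 66813, 63311 and 65095 in the DPP4_pos libraries and 1979, 1971, 1823 and 1814 in the DPP4_neg libraries, a 34.3-fold difference (log2 5.10 ± 0.04, adjusted p = 1.03e-19). Under vehicle its means were 1893 and 34.4, and its gap of 5.74 was wider than under isoproterenol. Il1rl1 (chromosome 1, 40404864 to 40465418), which encodes ST2 in a membrane and a soluble form, had 102848, 95830, 94131 and 90023 against 5091, 4625, 5125 and 5294. It was 19.0-fold higher (log2 4.25 ± 0.05, adjusted p = 6.39e-18), with vehicle means of 2327 and 148 and a gap that did not change detectably (0.18 ± 0.26). Both genes were thus at high counts in both populations under isoproterenol, and their order was the one already present under vehicle. The table counts whole genes, so the forms of ST2 are not resolved.

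Of 38 cytokines and chemokines 27 were tested, and 19 were higher and 7 lower, 12 and 5 of them by at least 2-fold, with a median of 0.86. Of the 27, 2 had passed the filter through their higher group alone, Cxcl2 and Csf3. The CXC chemokines that attract neutrophils were among the widest differences. Cxcl1 had 3823, 4460, 4877 and 3790 in the DPP4_pos libraries against 183, 182, 158 and 185, a 23.7-fold difference (log2 4.57 ± 0.08, adjusted p = 1.91e-16). Cxcl2 had 345, 449, 604 and 425 against 4.86, 4.41, 3.15 and 5.25, and Cxcl5 had 7366, 8284, 7922 and 6842 against 204, 163, 145 and 171. Under vehicle Cxcl1 and Cxcl5 had been less far apart between the populations. Cxcl2 had vehicle means under 5 in both, so its vehicle gap rests on few reads. Vehicle gaps were 1.56 for Cxcl1, 0.07 for Cxcl2 and 1.74 for Cxcl5, and each widened under isoproterenol, by 3.01, 6.31 and 3.74. Csf3, the granulocyte colony-stimulating factor, had 88.8, 122, 104 and 99.6 in the DPP4_pos libraries. The 4 DPP4_neg libraries together held 5 Csf3 reads, which gives a ratio of reads of 81.3 with a 95% counting interval of 34.4 to 252.5.

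Il6 and Il11, which signal through gp130, were higher as well, and Il6 had changed order. Il6 (chromosome 5, 30013114 to 30019975) had 2667, 2990, 3494 and 2896 in the DPP4_pos libraries and 540, 713, 532 and 580 in the DPP4_neg libraries, 5.10-fold higher (log2 2.35 ± 0.09, adjusted p = 2.19e-12). Under vehicle it was lower in the DPP4_pos libraries, with means of 58.9 and 134. Il11 had 13623, 10826, 11844 and 12816 against 4649, 4202, 4209 and 4948, and Lif, another member of that family, 2598, 2303, 2832 and 2355 against 1563, 1546, 1535 and 1464. Both of these had also been lower in the DPP4_pos libraries under vehicle, by 0.61 and 2.27. Ccl2, which attracts monocytes, stood at 1324, 1397, 1609 and 1323 against 490, 568, 601 and 517, with a vehicle gap of -0.15. Ccl8 at 4.80 and Cxcl13, which attracts B cells, at 3.49 were wide under both treatments, and both gaps were narrower under isoproterenol.

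Several secreted factors went the other way. Cxcl14, a chemokine made by preadipocytes and brown fat, had 5377, 5105, 5181 and 5806 in the DPP4_pos libraries and 73305, 71287, 68134 and 74017 in the DPP4_neg libraries (log2 -3.74 ± 0.05, adjusted p = 1.11e-17). Its vehicle gap was -5.26, so the populations were closer under isoproterenol. Cx3cl1, or fractalkine, was lower by 2.37 and Il1rn, which blocks the IL-1 receptor, by 2.22 on the log2 scale.

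Of 27 NF-kB targets tested of 28 listed, 21 were higher and 2 lower, 15 of the 21 by at least 2-fold, with a median of 1.22 (0.48 under vehicle). Under equal totals 19 were higher and 5 lower. Saa3, an acute-phase protein, had 3635, 4160, 4244 and 3894 against 46.2, 47.0, 69.4 and 65.6, and its gap of 6.12 was close to that under vehicle, 6.38. The iron-binding protein gene Lcn2 was higher by 3.90 and the complement gene Cfb by 4.01. Tnip1, an inhibitor of the pathway, was lower by 0.74. Traf1, an adaptor of TNF receptors, was at -0.82 and lost its call without DPP4_neg replicate 1, 2 or 3 or DPP4_pos replicate 2 or 4, at -0.80 to -0.67. Gaps moved toward the DPP4_pos side for 17 of the 27 and away from it for 4, beside 33% and 31.4% of all genes tested.

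The stretches before the start sites of 3 of these cytokine genes are printed because they hold the kappaB letters and the genes were far apart between the populations. Each is the 250 bases upstream of the start in RefSeq on GRCm38.p6, at chr5:90890995-90891244 (plus strand), chr5:90903649-90903898 (plus strand) and chr5:30012864-30013113 (plus strand). Capitals mark the kappaB letters, GGGA and TTCC with any 2 bases between them, on either strand, and in Cxcl1 and Cxcl2 they cover a pair of matches shifted by 1 base.
Cxcl1: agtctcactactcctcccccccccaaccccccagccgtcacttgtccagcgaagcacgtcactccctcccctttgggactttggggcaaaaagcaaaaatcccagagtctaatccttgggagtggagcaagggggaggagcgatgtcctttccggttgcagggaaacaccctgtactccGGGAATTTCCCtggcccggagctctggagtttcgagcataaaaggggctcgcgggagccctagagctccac
Cxcl2: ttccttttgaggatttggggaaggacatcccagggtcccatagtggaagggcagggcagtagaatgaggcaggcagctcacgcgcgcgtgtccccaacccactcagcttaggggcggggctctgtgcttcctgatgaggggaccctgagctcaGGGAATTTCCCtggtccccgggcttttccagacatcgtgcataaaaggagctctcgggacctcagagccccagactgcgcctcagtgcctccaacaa
Il6: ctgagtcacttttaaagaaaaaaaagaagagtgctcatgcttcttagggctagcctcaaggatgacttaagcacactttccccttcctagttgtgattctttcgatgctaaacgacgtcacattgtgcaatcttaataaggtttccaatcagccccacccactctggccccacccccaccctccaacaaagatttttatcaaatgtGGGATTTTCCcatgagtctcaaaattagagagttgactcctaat

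The search ran over 300 bases per promoter, 250 before the start and 50 after, and 7 motifs and the promoters printed were chosen after the values were seen. These kappaB letters were in 1.47% of all 32851 promoters in the RefSeq table and in 1.64% of the 10289 genes tested that had one. It was in 4 of 20 NF-kB targets with a promoter (Cxcl1, Il6, Nfkb2 and Nfkbia) and in 5 of 17 cytokines and chemokines, and in 2.56% of genes at least 2-fold higher and 1.41% of genes at least 2-fold lower. A match says only that the letters are there. The AP-1 letters TGANTCA were in 7.81% of all promoters, in 6.24% of those of genes tested, and in 6 of the 17 cytokines and chemokines, Il6, Il11 and Lif among them.

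Receptors and feedback genes of IL-6 family signalling were also mostly higher: 15 of 18 higher and 1 lower, median 0.97. Socs3, the feedback inhibitor that STAT3 induces, had 5602, 5492, 5235 and 5406 against 1316, 1399, 1298 and 1264 (log2 2.04 ± 0.04, adjusted p = 2.15e-15). Osmr, the oncostatin M receptor, had 10270, 9800, 9929 and 10219 against 3613, 3357, 3043 and 3512. Both were clearly apart, and both gaps were wider than under vehicle, where they were 0.50 and 0.56. Il11ra1, the IL-11 receptor chain, was higher by 1.37, while Il6ra, the IL-6 receptor chain, was lower by 0.58 after having been higher by 0.60 under vehicle.

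Of 20 complement genes 19 were tested, with 10 higher and 4 lower. C3, the central component, had 47920, 49171, 52682 and 45721 against 3799, 4238, 3628 and 3938 (log2 3.65 ± 0.05, adjusted p = 3.39e-17). Its DPP4_pos mean was close to the vehicle mean of 50282, while its DPP4_neg mean stood at 3901 beside 13785 under vehicle. C1ra, C2 and C7, which act in the classical and terminal steps, were higher by 2.85, 2.71 and 2.82. Cfd, or adipsin, which adipocytes secrete, was the most negative member at -2.83.

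Genes of the early response to cyclic AMP were on balance higher in the DPP4_pos libraries. All 40 were tested, and 32 were higher and 8 lower, 10 and 5 of them by at least 2-fold. Their median log2 difference was 0.69, beside -0.20 under vehicle. The gap moved toward the DPP4_pos side for 29 and away from it for 10, beside 33% and 31.4% of all genes tested. Nr4a1, an orphan nuclear receptor induced within minutes by cyclic AMP, had 9236, 9028, 9620 and 9490 against 4666, 5049, 4409 and 4585, 2-fold higher (log2 1.0 ± 0.05, adjusted p = 1.81e-11). Vehicle means of Nr4a1 were 79.7 and 211, the opposite order. Ptgs2, the inducible cyclooxygenase, had 8123, 7143, 9614 and 7951 against 1619, 1217, 1352 and 1323, and it too had been lower under vehicle, by 1.22. Gem, a small GTPase that inhibits calcium channels, was higher by 2.94 and Irs2, an adaptor of the insulin receptor, by 1.75. Among the 8 lower members Egr3 was at -1.41, Ppargc1a at -1.31 and Bdnf at -1.76. The early response thus did not run one way.

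Adrb3 and Adrb1, receptors through which isoproterenol acts, were read at low counts. Adrb3, the receptor of adipocytes, had 12.4, 17.4, 19.0 and 13.2 in the DPP4_pos libraries and 61.5, 69.7, 91.5 and 59.1 in the DPP4_neg libraries (log2 -2.12 ± 0.21, adjusted p = 2.59e-07). Adrb1 had 6.74, 12.2, 23.4 and 15 against 41.3, 32.3, 20.5 and 17.1, with overlapping groups and a difference of -0.94 ± 0.36 (adjusted p = 0.0275). The Adrb1 call was lost without DPP4_neg replicate 1 or 2 or DPP4_pos replicate 1 or 2, at -0.91 to -0.65. Neither of these receptor genes was higher in the DPP4_pos libraries. Vehicle means of Adrb3 were 774 and 1969, so both populations read less of it under the drug.

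Of 44 genes of adrenergic receptors and cyclic AMP signalling 37 were tested, with 10 higher (5 under equal totals) and 20 lower, 1 and 7 by at least 2-fold. Adcy2, an adenylyl cyclase, was higher by 2.25 under isoproterenol and by 2.26 under vehicle. The alpha receptors Adra1d and Adra2a were lower by 3.31 and 2.56. Counts of Adra1d were 23.6, 15.7, 20.5 and 16.9 against 173, 211, 219 and 186.

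Thermogenic genes were more often lower than higher, with 1 wide exception. Of 25 listed, 18 were tested, with 2 higher and 9 lower, 1 and 6 of them by at least 2-fold. Of the 18, 2 had passed through their higher group alone. Under equal totals 1 was higher and 11 lower, and with quantile normalization 1 was higher and 8 lower. Dio2 (chromosome 12, 90724552 to 90739038), the deiodinase that activates thyroid hormone and is induced by cyclic AMP in brown fat, had 18587, 18419, 19734 and 19261 in the DPP4_pos libraries. In the DPP4_neg libraries it had 1632, 1474, 1629 and 1461, so the difference was 12.3-fold (log2 3.62 ± 0.05, adjusted p = 1.24e-17). Vehicle means were 23.7 and 6.78, with a gap of 1.62 that widened by 1.99 ± 0.23 (adjusted p = 1.30e-07). Ucp1, the uncoupling protein of thermogenic fat, went the other way, with 69.7, 66.2, 87.7 and 78.9 against 156, 222, 137 and 133 (log2 -1.07 ± 0.16, adjusted p = 1.6e-05). It was close to 0 in both populations under vehicle, with means of 1.05 and 0.936. Ppargc1a, the coactivator of mitochondrial and thermogenic genes, had 47.2, 47.0, 45.3 and 41.3 against 120, 123, 117 and 97.1. Prdm16, a regulator of brown fat identity, read 70.8 and 73.3 on average and was not called.

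The 250 bases upstream of Dio2 are printed because they hold a full cyclic AMP response element, at chr12:90739039-90739288 (minus strand, RefSeq, GRCm38.p6), with TGACGTCA in capitals.
Dio2: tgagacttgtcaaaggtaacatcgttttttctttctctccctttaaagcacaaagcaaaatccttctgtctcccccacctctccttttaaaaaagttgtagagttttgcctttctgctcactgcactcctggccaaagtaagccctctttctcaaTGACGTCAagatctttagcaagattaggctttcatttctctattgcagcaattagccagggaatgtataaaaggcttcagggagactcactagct

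TGACGTCA was in 3.62% of the tested genes' promoters, in 2.32% of those at least 2-fold higher and in 2.59% of those at least 2-fold lower. It was in 4 of 31 early response genes with a promoter, Areg, Btg2, Dusp1 and Maff, and in 0 of 17 cytokines and chemokines. The shorter letters TGACG were in 35.3% of tested promoters and in 21 of the 31.

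Adipocyte genes were mostly lower in the DPP4_pos libraries. Of 30 listed, 28 were tested, with 20 lower and 4 higher, 11 and 2 of them by at least 2-fold, and a median of -0.84 beside -1.06 under vehicle. Pparg, the master regulator of adipocyte differentiation, had 288, 310, 327 and 295 against 884, 946, 920 and 923 (log2 -1.59 ± 0.06, adjusted p = 1.68e-12). Fabp4, a fatty acid carrier, had 2428, 2781, 3000 and 2516 against 7615, 9312, 9759 and 7756. Adipoq, which encodes adiponectin, was lower by 1.68, Plin4, a lipid droplet coat protein, by 2.30 and Gpd1, which makes glycerol phosphate, by 2.46. Fasn and Mgll were the exceptions past 2-fold, higher by 1.24 and 1.61. Mature adipocyte markers summed to 1335 to 1435 in the DPP4_pos and to 3603 to 4264 in the DPP4_neg libraries, and Lep had no read in either. Among 13 lipolysis genes 4 were higher and 8 lower: Abhd5, the coactivator of the triglyceride lipase ATGL, was at 0.95 and Pdk4, a kinase that spares glucose, at -2.73.

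Growth factors and peptide hormones were split, 21 higher and 13 lower of 38 tested, and 16 and 16 under equal totals. Adm, or adrenomedullin, had 558, 610, 699 and 485 against 109, 134, 125 and 106. Its vehicle means were far higher, 7949 and 4996. Fgf10, a mitogen of preadipocytes, had 800, 948, 896 and 917 against 4358, 4147, 4281 and 4034 (log2 -2.24 ± 0.05), while its vehicle means of 1467 and 1686 differed by 0.20. Tgfb3 was lower by 2.63, Agt, or angiotensinogen, by 2.45 and Angpt2, a ligand of Tek, by 2.60. Of their receptors, 20 of 31 tested were higher and 7 lower. Calcrl, which binds adrenomedullin with a RAMP partner, was higher by 2.86 and Gfra2, a receptor of the GDNF family, by 3.54. The receptors for endothelin split, with Ednrb higher by 3.14 (means 70.4 and 7.93) and Ednra lower by 2.07 (means 41.8 and 167). Ednra had been near even under vehicle, at 0.32. Egfr, the receptor for EGF, was higher by 1.65, Kdr, a VEGF receptor, by 2.49, and Il1r1, the IL-1 receptor, by 1.34, while Ramp1, a partner of the calcitonin receptor family, was lower by 2.26. Ligand and receptor were therefore not always on the same side.

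Bmp7 (chromosome 2, 172868012 to 172940321), a ligand known for promoting brown adipogenesis, had 239, 216, 238 and 242 in the DPP4_pos libraries. The DPP4_neg libraries together held 7 reads of it, which gives a ratio of reads of 133.8 with a 95% counting interval of 64.6 to 334.3. Bmp7 was also one-sided under vehicle, with 0 reads in the DPP4_neg libraries and at least 168.2-fold more in the DPP4_pos libraries, against a floor of 3 reads over the group. Bmp4, a commitment factor for white fat, was low throughout and changed order: 20.2, 22.6, 17.5 and 20.7 against 4.05, 0.734, 3.15 and 1.31, from vehicle means of 10.3 and 58.6. Of 23 genes tested among 26 BMP ligands, antagonists and targets, 12 were higher and 7 lower, and 2 had passed through their higher group alone. The antagonists fell on both sides, Chrdl1 at 2.49, Nog, or noggin, at -2.29 and Grem1 at -2.89.

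Wnt genes showed no common direction, with 8 higher and 10 lower of 24 tested. Sfrp4, a secreted Wnt inhibitor, had 1058, 1232, 1137 and 1101 against 69.6, 94.0, 93.1 and 87.9. Wisp2, a matricellular protein of fat precursors, had 1230, 1181, 1201 and 1246 against 8168, 9226, 8890 and 8578 (log2 -2.84 ± 0.04, adjusted p = 5.73e-17). The Wisp2 gap had been -0.74 under vehicle, with means of 8498 and 14148. Among the ligands themselves, Wnt5b was higher by 2.56 and Wnt16 by 2.43, and Wnt4 was lower, as was Wnt5a, at -2.06. Wnt5a had means of 210 and 885. The inhibitor Dkk2 was higher by 2.32, while Frzb, another inhibitor, was lower by 2.48 and Lgr6, an R-spondin receptor, by 2.74.

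Genes of retinoid metabolism lay on both sides. Of 15 tested, Aldh1a2 among them, 6 were higher and 8 lower. Rdh10, which makes the retinaldehyde that Aldh1a2 oxidizes, had 4116, 4011, 3677 and 3801 in the DPP4_pos libraries against 632, 587, 664 and 588 (log2 2.66 ± 0.05, adjusted p = 1.06e-15), after a vehicle gap of -0.92. Aldh1a3, a related dehydrogenase, was higher by 1.59. Dhrs3, which reduces retinaldehyde, was lower by 2.37. The carrier gene Crabp2 differed by -1.98. The 2 enzymes of retinoic acid synthesis with the widest differences thus lay in opposite populations.

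Contractile genes controlled by SRF were lower almost throughout. Of 25, all tested, 21 were lower and 2 higher, 17 of the lower ones by at least 2-fold, with a median of -1.91 beside -2.51 under vehicle. Acta2, smooth muscle actin, had 4522, 4115, 3716 and 3580 against 66949, 72237, 66336 and 67181, a 17.2-fold difference (log2 -4.10 ± 0.06, adjusted p = 4.47e-17). Myh11, smooth muscle myosin, had 64.0, 69.7, 43.8 and 69.5 against 1970, 1932, 1858 and 1990, and Cnn1, calponin, had 227, 193, 158 and 175 against 3931, 4054, 3246 and 4061. None of these 3 had a gap that changed detectably from vehicle. Actin genes have near-identical coding sequences, so the values of Actg2 (-4.83) and Acta1 (-4.33) may share reads with Acta2. Zyx at 0.49 and Srf itself at 0.32 were the 2 higher members, and both had been lower under vehicle, by 1.16 and 1.43. Srf lost its call under equal totals, at 0.12. Mural markers fell on both sides (above). So did targets of YAP and TEAD, 9 higher and 9 lower of 20. Their gap moved toward the DPP4_pos side for 13, beside 33% of all genes tested. Nt5e, or CD73, was at 2.17 and Thbs1, thrombospondin 1, at 0.91, while Ctgf was at -2.18 and Ankrd1 at -1.76.

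The 250 bases upstream of Cnn2, a calponin gene lower by 2.44, are shown with their CArG box, the SRF site, in capitals, at chr10:79988350-79988599 (plus strand, RefSeq, GRCm38.p6).
Cnn2: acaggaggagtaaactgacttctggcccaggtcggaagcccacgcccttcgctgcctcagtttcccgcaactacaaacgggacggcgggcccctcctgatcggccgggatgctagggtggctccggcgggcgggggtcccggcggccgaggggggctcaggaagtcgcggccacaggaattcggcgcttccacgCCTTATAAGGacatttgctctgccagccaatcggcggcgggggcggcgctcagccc

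The CArG box was in 8 of 23 contractile genes with a promoter, in 1.57% of the genes tested, in 3.46% of those at least 2-fold lower and in 1.34% of those at least 2-fold higher.

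**Figure D3:**
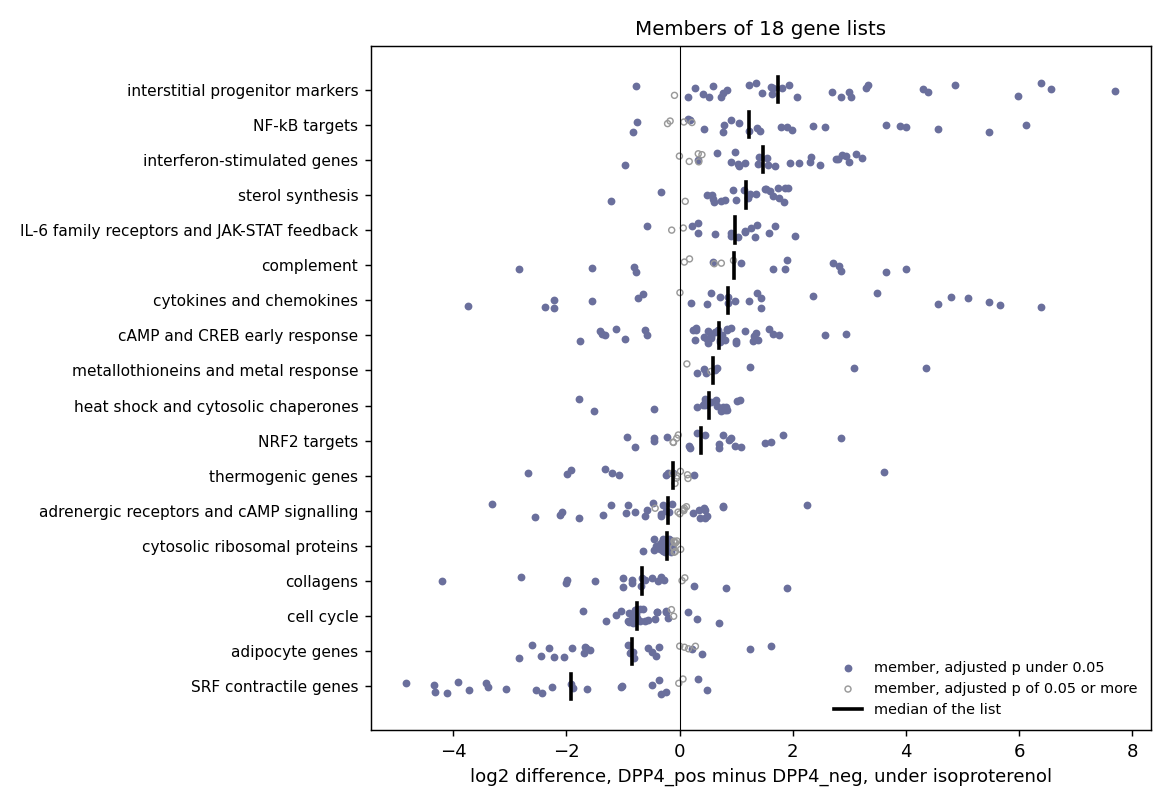
The log2 difference, DPP4_pos minus DPP4_neg under isoproterenol, of each tested member of 18 gene lists, with filled points for members at an adjusted p under 0.05, open points for the others and a bar at each median. Medians run from 1.73 for interstitial progenitor markers to -1.91 for SRF contractile genes.

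Collagens followed the contractile genes in direction: 16 of 21 were lower and 3 higher, with a median of -0.67. Col8a1, a short-chain collagen, had 444, 420, 402 and 408 against 7874, 7781, 7718 and 7581 (log2 -4.21 ± 0.04, adjusted p = 8.75e-19). Col12a1 was lower by 2.01 and Col1a1 by 0.83, while Col14a1 was higher by 1.89 and Col3a1 by 0.83. For 14 of the 21 the gap moved toward the DPP4_neg side under isoproterenol, beside 31.4% of all genes tested. For the other 7 its change did not pass the test. Other matrix genes were split, 19 higher and 12 lower of 33, with a median of 0.18 that turned to -0.02 under equal totals. Tnxb, a tenascin of loose connective tissue, was higher by 2.30, Fmod, or fibromodulin, lower by 2.99 and Tnc, tenascin C, lower by 1.74.

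Proteases and their inhibitors were more often higher, 17 of 27 tested, with 5 lower (8 under equal totals). Mmp3, or stromelysin, had 16249, 17152, 18250 and 16029 against 313, 424, 456 and 377 (log2 5.44 ± 0.09, adjusted p = 7.71e-17). Mmp2, a gelatinase, was higher by 2.37 and Plat, the tissue plasminogen activator, by 2.15, while Timp3, an inhibitor of these enzymes, was lower by 3.05. In the hyaluronan list 9 of 13 tested were higher and 4 lower, and 1 had passed through its higher group alone. Tnfaip6, which cross-links hyaluronan chains, had 36547, 33632, 34405 and 37342 against 3690, 3393, 3360 and 3520 (log2 3.34 ± 0.05). Has1, a hyaluronan synthase, had 9348, 8690, 9172 and 9907 against 1655, 1694, 1809 and 1782. Vehicle means were 342 and 180 for Tnfaip6 and 25.3 and 18 for Has1. Of 16 prostaglandin genes tested, 11 were higher and 2 lower (4 under equal totals), and besides Ptgs2 the prostacyclin synthase gene Ptgis was at 2.29 and the phospholipase gene Pla2g4a at 1.92.

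Interferon-stimulated genes, which answer type I interferon and viral RNA, were higher in the DPP4_pos libraries. Of 31 listed, 30 were tested, with 24 higher and 1 lower, 20 of the 24 by at least 2-fold, and 1 had passed through its higher group alone. Their median was 1.48, beside 3.27 under vehicle. The vehicle libraries were uneven too, with list sums of 27058 to 59107 in the DPP4_pos and 8304 to 9251 in the DPP4_neg libraries. The gap moved toward the DPP4_neg side for 29 of the 30, beside 31.4% of all genes tested. Ifit1, an antiviral RNA-binding protein, had 200, 247, 739 and 224 in the DPP4_pos libraries and 33.2, 145, 64.7 and 40.7 in the DPP4_neg libraries (log2 2.31 ± 0.41, adjusted p = 0.000121). Rsad2, or viperin, had 56.2, 71.4, 237 and 78.9 against 6.48, 7.34, 17.4 and 7.88. In both genes DPP4_pos replicate 3 stood above the other libraries of its group. Summed over the list, that replicate was at 32201 and the group's others lower, down to 22156, and DPP4_neg replicate 2 was at 21331 while its group went down to 12597. Without DPP4_pos replicate 3 the list had 23 higher members, and without DPP4_neg replicate 2 it had 27. Ifit2 was the lower member, at -0.96, after a vehicle gap of 1.35. Cxcl10, an interferon-induced chemokine, had 52.8, 99.3, 148 and 62.0 against 33.2, 39.6, 66.3 and 35.4, so its groups overlapped.

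The 250 bases upstream of Rsad2 (chr12:26456453-26456702, minus strand) and Ifit1 (chr19:34640639-34640888, plus strand), RefSeq on GRCm38.p6, are printed with the letters of the interferon-stimulated response element, GAAA repeated after any 2 bases, on either strand, in capitals.
Rsad2: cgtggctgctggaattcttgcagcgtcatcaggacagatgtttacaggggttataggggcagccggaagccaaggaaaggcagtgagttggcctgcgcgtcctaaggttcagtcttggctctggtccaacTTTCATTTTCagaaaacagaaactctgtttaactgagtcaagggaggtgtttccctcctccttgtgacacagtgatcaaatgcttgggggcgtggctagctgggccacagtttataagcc
Ifit1: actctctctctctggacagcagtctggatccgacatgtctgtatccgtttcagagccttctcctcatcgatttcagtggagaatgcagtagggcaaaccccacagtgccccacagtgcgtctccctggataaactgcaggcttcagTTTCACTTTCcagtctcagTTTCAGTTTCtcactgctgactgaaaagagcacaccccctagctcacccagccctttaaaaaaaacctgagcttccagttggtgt

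Those letters were in 10 of 22 interferon-stimulated genes with a promoter, in 3.63% of genes tested, in 6.46% of genes at least 2-fold higher and in 3.14% of genes at least 2-fold lower.

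**Figure D4:**
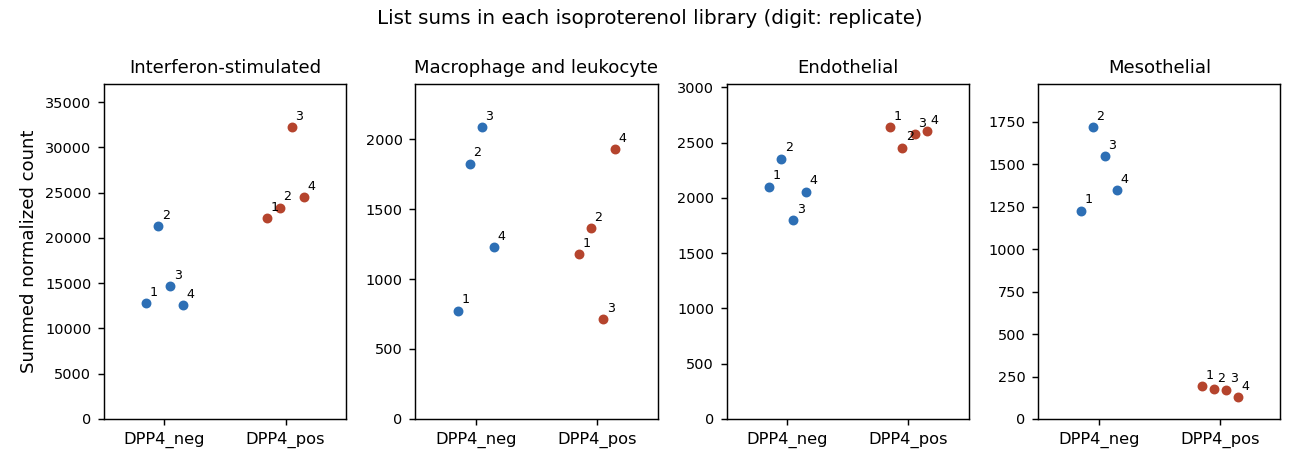
Summed normalized count of interferon-stimulated genes and of macrophage, endothelial and mesothelial markers in each library under isoproterenol, with the replicate number beside each point. DPP4_pos replicate 3 (32201) and DPP4_neg replicate 2 (21331) lie above the rest of their groups for interferon-stimulated genes, and macrophage sums overlap between the groups.

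Antigen presentation by MHC class I was not on one side: 4 of 12 genes were higher and 3 lower (5 under equal totals), B2m, the shared light chain, at 1.33 and the peptide transporter gene Tap2 at -1.05. The gap moved toward the DPP4_neg side for 11 of the 12, beside 31.4% of all genes tested.

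Sterol synthesis genes were higher nearly throughout, 21 of 24 against 2 lower, with a median of 1.17 beside 0.82 under vehicle. Hmgcs1, which makes the precursor of mevalonate, had 11790, 11516, 10745 and 12293 against 3157, 2938, 3109 and 3074 (log2 1.91 ± 0.05, adjusted p = 8.13e-15). Insig1, which holds back SREBP, was higher by 1.85. The exceptions were neighbouring kinases of the mevalonate route, Pmvk at -1.21 and Mvk at -0.33. Pmvk had 1151, 1153, 1337 and 1233 against 2532, 3042, 3081 and 2615, and had been higher by 0.53 under vehicle. The SREBP letters TCACNCCAC were in 1 of 16 of these promoters, that of Hmgcs1, and in 1.39% of genes tested.

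NRF2 targets, which answer oxidative stress, were higher for 15 of 24 tested and lower for 5 (8 under equal totals). Slc7a11, the cystine importer, had 14118, 14649, 16544 and 13120 against 2193, 1949, 2010 and 1928 (log2 2.85 ± 0.06, adjusted p = 2.74e-15). Under vehicle it had been lower in the DPP4_pos libraries, with means of 85.3 and 202. Srxn1 and Txnrd1, which reduce oxidized peroxiredoxins and thioredoxin, were higher by 1.62 and 1.5, while Me1, malic enzyme, was lower by 0.78. Metallothioneins were wide apart: Mt2 had 16021, 16119, 14570 and 14182 against 727, 823, 655 and 772, and Mt1 differed by 3.09. These 2 genes are close in sequence and could share reads.

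Heat shock genes were higher for 17 of 20 and lower for 3, with a median of 0.53 beside -0.33 under vehicle. Hsph1, a co-chaperone of the HSP110 family, was at 1.07, while the small heat shock genes Cryab and Hspb1 were at -1.78 and -1.52. ER chaperone genes were more often lower than higher, by a margin that changed with the scaling. Of 22, 3 were higher and 11 lower, and 1 and 17 under equal totals. Herpud1 was at -0.96 and Dnajb9 at 0.88. ATF4 targets were even, 11 higher and 11 lower of 26, but the gap moved toward the DPP4_pos side for 20 of them, beside 33% of all genes tested. Their median went from -1.13 under vehicle to 0.05 (-0.15 under equal totals). Nupr1, a stress-induced chromatin protein, was at 1.70 and Chac1, which degrades glutathione, at -1.82.

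Genes of glycolysis and the hypoxia response were 10 higher and 15 lower of 31 tested. Their gap moved toward the DPP4_pos side for 21, beside 33% of all genes tested. Hk2, hexokinase, had 6134, 5638, 5821 and 6188 against 2988, 2531, 3010 and 2823, from a vehicle gap of -1.68. Slc2a1, the GLUT1 glucose transporter, was at 1.08 after a vehicle gap of -1.03, and Ldha, lactate dehydrogenase, was at -0.08 and not called, after -1.25. Ndrg1 was at 2.01 and the collagen hydroxylase gene P4ha2 at -1.48.

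Cell cycle genes were lower in 29 of 34 and higher in 3, mostly by under 2-fold. Their median was -0.75 and 4 were at least 2-fold lower. Ccnb2, a mitotic cyclin, had 254, 195, 200 and 257 against 487, 503, 492 and 473 (log2 -1.12 ± 0.09, adjusted p = 2.72e-08). Cdkn2a, an inhibitor of the cycle, was lower as well, by 1.71, and Pcna, the replication clamp, was higher by 0.69. Among 40 genes for proteins of the cytosolic ribosome, many of which have near-identical pseudogenes, 32 were lower and 8 were not called, with a median of -0.23. Among 31 nuclear genes of the respiratory chain 21 were lower and 10 were not called, with a median of -0.26. Under equal totals 39 and 30 were lower. Of 9 mitochondrially encoded genes tested 7 were higher, 2 of them under equal totals, and ND2 was at 0.66. The summed counts of the mitochondrially encoded genes in DPP4_neg replicate 3 was 209356, the lowest of the 8 libraries.

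Clock genes were higher for 11 of 20 tested and lower for 4. Arntl, or Bmal1, the activator of the clock, had means of 2041 and 1025, a log2 difference of 0.99, while Dbp, an output gene, had 39.3, 31.4, 29.2 and 35.7 against 89.9, 94.0, 78.9 and 94.5 (log2 -1.38 ± 0.15). Both had been the other way under vehicle, at -0.36 and 0.94. Genes of the p53 response were 7 higher and 8 lower of 21, with Gadd45a at means of 1443 and 654 and Ccng1, cyclin G1, at -0.99. Glucocorticoid targets were 7 higher and 5 lower of 15, with a median of 0.09 that turned to -0.11 under equal totals.

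The gap between the populations was then compared with the gap under vehicle, in a fit over all 16 libraries. The gap changed at 8562 genes (64.5%), 4386 (33%) moving toward the DPP4_pos side and 4176 (31.4%) toward the DPP4_neg side. Of the 1123 genes at least 2-fold higher under isoproterenol, 612 (54.5%) were also at least 2-fold higher under vehicle. A further 477 were under 2-fold either way under vehicle, and the change of the gap passed the test for 434 of them. The last 34 had been at least 2-fold lower, and all 34 passed. Of the 1232 genes at least 2-fold lower, 501 (40.7%) were at least 2-fold lower under vehicle too, 711 were under 2-fold and 20 had been at least 2-fold higher.

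Genes that turned their order were counted next, leaving out predicted genes, pseudogenes, entries without a symbol and genes with a near-identical copy. A gene counted if it differed by at least 2-fold under both treatments, with groups that did not overlap under either. The change of its gap also had to pass the test. Such genes numbered 33 now higher and 18 now lower in the DPP4_pos libraries. Sox11, a transcription factor of progenitors, was the widest of the first kind. It had 1757, 1843, 1600 and 1719 in the DPP4_pos and 273, 236, 219 and 211 in the DPP4_neg libraries, from vehicle means of 26.9 and 246, and its gap moved by 6.04 ± 0.13 (adjusted p = 1.52e-18). Kank4 turned from -2.61 to 2.05, and Ptgs2, Il6, Slc7a11, Hk2, Errfi1, a feedback inhibitor of EGFR, and Fst, or follistatin, were others among the 33. Tgfbi, an extracellular matrix protein induced by TGF-beta, turned the other way, with 160, 155, 142 and 105 against 574, 591, 573 and 683, from vehicle means of 369 and 148. Pde11a, a phosphodiesterase, and Wnt9b were also among the 18, with gaps of 1.06 and 1.6 under vehicle and -2.85 and -2.22 under isoproterenol.

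Further changes of the gap were of several kinds. Lmcd1, a LIM-domain cofactor, had a vehicle gap of -5.10 from means of 19.8 and 709. Under isoproterenol it had 108, 122, 110 and 103 against 81.8, 94.0, 64.7 and 63.0, a gap of 0.56. Ret, the receptor tyrosine kinase of the GDNF family, went from a gap of -5.23 to -1.03, with 182, 179, 202 and 197 against 357, 414, 393 and 394. For Gfra2, a co-receptor of the same family, the gaps were 3.45 and 3.54. Tox2, an HMG-box factor, opened from 0.43 to 4.58, with 140, 141, 102 and 130 in the DPP4_pos libraries and 18 reads in all in the DPP4_neg libraries. Scin, an actin-severing protein, went from 2.88 to -0.72.

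**Figure D5:**
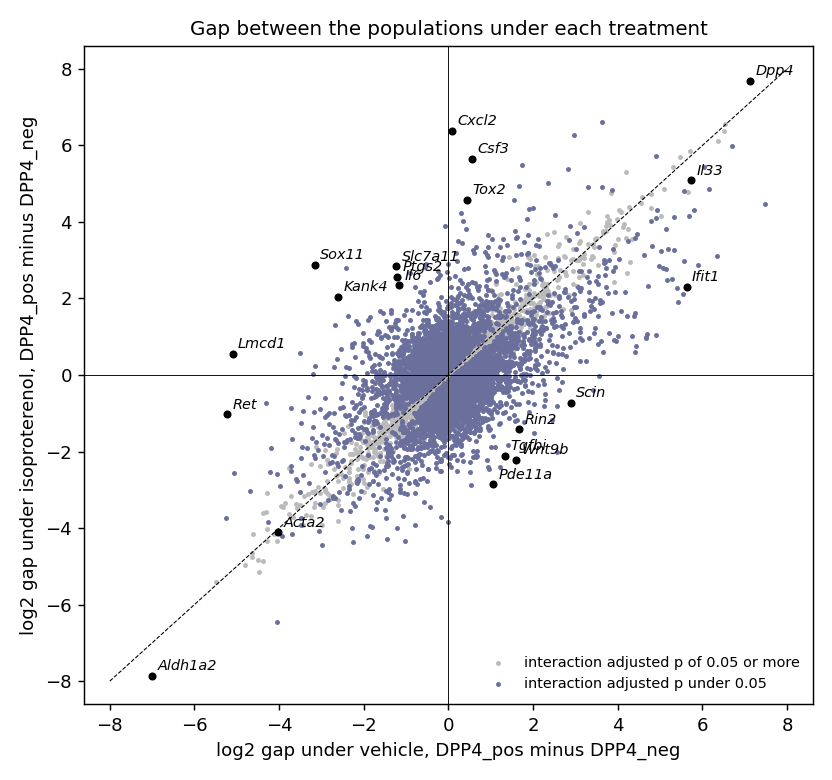
The log2 gap, DPP4_pos minus DPP4_neg, under vehicle (horizontal) and under isoproterenol (vertical) for each of the 13284 genes tested, with the line of equal gaps dashed and coloured points where the change of the gap passed an adjusted p of 0.05. Sox11, Kank4, Slc7a11, Ptgs2 and Il6 lie at the upper left, Tgfbi, Rin2, Pde11a and Wnt9b at the lower right, and Dpp4 and Aldh1a2 at the ends of the line.

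Not every gene could be read. Of 1093 entries in the 48 gene lists, which overlap, 988 were tested and 105 did not pass the filter. Of the 13284 genes, 272 passed only through 1 of the groups, and all 272 were called, 129 higher and 143 lower, as the filter makes likely. Genes just inside the filter included Sds and Tmem108, with a fourth-highest value of 10.1, and those just outside were Vmn2r29, Pnldc1 and Sec1, with 9.72.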

How the data were processed

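The deposited table holds 1 normalized signal per gene and library. Per the submitters' processing notes, the builds are GRCm38 and mm10 and the tools include DESeq2 1.6.3, featureCounts 1.4.6, HISAT2 2.0.1 and Trim Galore 0.4.1. The values the authors deposited behave as read counts divided by a size factor: 100% of 280334 values above 0 were whole multiples, within 0.001, of 1 step per library, so reads were recovered. Entries without a gene symbol (958, 0.0926% of the counts) were tested where they passed the filter, and none is named. Gene symbols are those of the deposited table, except for 26 that read as dates and were restored from RefSeq. Positions came from RefSeq (25275 entries matched).

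Log2(normalized count + 1) was fitted with limma 3.58.1 (trend, Benjamini-Hochberg over all genes tested) in R 4.3.3, on the 8 isoproterenol libraries, 4 per group. Fold changes are on that scale and understate low genes. The change of the gap was a contrast over 16 libraries. The script was tested on simulated counts. Alternatives used edgeR 4.0.16 and DESeq2 1.42.0 on recovered reads, other scalings, filters and pseudocounts, a replicate block and left-out libraries. Counting intervals (95%) and floors cover counting error only.

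Named genes are fixed ones, the 12 highest and 12 lowest with a mean of at least 50 and groups apart, the 4 largest called per list with up to 2 of the lesser direction, and the 8 largest gap changes each way. Not all are printed, and some items are not reported here; near-identical actins were passed over among the 12. Genes named outside this rule, namely Pi16, F3, Thy1, Pecam1, Thbs1, Lif, Ccl8, Cxcl10, Cxcl13, Il1rn, C2, C7, Prdm16, Fgf10, Ednra, Egfr, Il1r1, the Wnt genes Wnt4, Wnt5a, Wnt16, Dkk2 and Frzb, Cnn2, Hk2, Slc2a1, Ldha, Arntl, Rin2 and Fst, were chosen after their values were seen. The comparison, gene lists and members were chosen with earlier results of these data known. The library kit, per the labels' protocols NEBNext Ultra II RNA, is not named as strand-specific, so antisense overlaps cannot be separated.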

Additional observations from a re-analysis of the deposited data

Results flagged for a closer look

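Single libraries far from the rest of their group were looked for in 128 groups of 4 values, the fixed genes, the widest genes, the widest gap changes and the marker sums, and 11 groups had one. Chance gives about 1 in 20. Pdgfrb in DPP4_pos replicate 1 (2347) stood above its group, and Pdgfra in DPP4_neg replicate 2 (9704) and Cnn1 in DPP4_neg replicate 3 (3246) stood below theirs. Krt13 was high in DPP4_neg replicate 2 (298.1) and Tgfbi in DPP4_neg replicate 4 (682.5). Bmp7 was low in DPP4_pos replicate 2 (216) and high in DPP4_neg replicate 3 (3.155), the latter resting on a few reads. Ifit1 was high in DPP4_pos replicate 3 (739.5). Among marker sums, that of interstitial progenitor markers was low in DPP4_pos replicate 2 (380237), that of epithelial markers high in DPP4_neg replicate 1 (162.8) and that of skeletal muscle markers low in DPP4_neg replicate 2 (13.22).

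The gap between the populations differed between isoproterenol and vehicle at 8562 genes, and the 16 listed under the rule for named genes are given here as changes of the log2 gap. Toward the DPP4_pos side they were Cxcl2 at 6.31, Sox11 at 6.04, Lmcd1 at 5.66, Csf3 at 5.09, Kank4 at 4.66, Ret at 4.20, Tox2 at 4.15 and Slc7a11 at 4.09. Toward the DPP4_neg side they were Pde11a at -3.91, Wnt9b at -3.82, Cited1 at -3.62, Scin at -3.61, Tgfbi at -3.44, Fam198a at -3.34, Aqp2 at -3.33 and Ifit1 at -3.32. Cxcl2, Csf3, Tox2, Wnt9b, Cited1 and Aqp2 had vehicle means under 5 in both populations, so the vehicle gap of those genes rests on few reads.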

How the results depend on the processing

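Counts of called genes stayed within 1.5 times of the reported ones under every alternative run: 9634 with edgeR (4688 higher, 4946 lower), 9070 with DESeq2 (4577 and 4493), 9594 with TMM scaling, 9359 with quantile normalization and 9844 with equal totals, the last chosen after seeing the data. With 1 library left out, 4718 to 4896 genes were higher, 4453 to 4559 lower, 1115 to 1143 at least 2-fold higher and 1213 to 1262 at least 2-fold lower, and the gap differed at 8257 to 8508. Of 236 named genes called, 222 kept call and direction in all 21 settings. Adrb1, Traf1, Perp, Cd68, Mrc1, Coro1a, Srf, Cdkn1a, Ptgfr, Atp2a2, ND4, ND5 and CYTB lost the call in at least 1. Directions reversed for Pdgfra, not called, to -0.2987 with quantile normalization and -0.1902 with equal totals, for Sel1l to -0.1093 and -0.02953, and for Atp2a2 to -0.09116 with quantile normalization. The cause was not tested. Counts within gene lists moved by over 1.5 times in 52 combinations of list and setting. With the replicate number as a block 9783 genes were called (5039 higher, 4744 lower). Deviations of same-numbered libraries from their group means had correlations of 0.0639, 0.098, -0.138 and 0.0149. Replicates 1 and 2, but not 3 and 4, correlated best with their own number. Correlations this weak cannot decide whether the numbers pair the samples. Precision below about 50 normalized counts is limited by reads, as for Adrb1 and Csf3.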
